A study of Mus musculus with 16 samples.

Results

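The 8 arrays of the mouse line 32Dcl.3 collected 3 days after transduction form a 2 by 2 design in which the transcription factors IRF8 and C/EBPalpha were each present or absent. They are 8 of the 16 arrays of the series, in 4 groups of 2, and they were chosen by their labels alone. 32Dcl.3 is a myeloid progenitor line that depends on interleukin 3 and was grown here with medium conditioned by WEHI3B cells. Every culture carried a pair of retroviral vectors, so the groups differ in the cDNA and not in the number of vectors. The controls carried empty MSCV-IRES-hCD8t with empty MSCV-IRES-puro. The C/EBPalpha group carried empty MSCV-IRES-hCD8t with MSCV-C/EBPalpha-IRES-puro, the IRF8 group carried MSCV-IRF8-IRES-hCD8t with empty MSCV-IRES-puro, and the double group carried both cDNA vectors. Both cDNAs were murine and were supplied by the vectors, outside the control of their own genes, and a single cell line stands for the progenitor. The 2 arrays of a group come from 2 separate experiments, numbered 1 and 2 in the labels. The other 8 arrays hold sorted bone marrow MDPs (monocyte and dendritic cell progenitors) and cMoPs (common monocyte progenitors) of wild-type (WT) and Irf8-deficient (Irf8KO) mice, and are used here only to look up genes picked out in the cell line.

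C/EBPalpha switches on the granule proteins and receptors of granulocytes and monocytes and slows division of myeloid progenitors. IRF8 directs progenitors to monocytes and dendritic cells, and mice without it accumulate neutrophils. Both factors are present together in monocyte progenitors, so what a gene does when they meet need not follow from what each does alone.

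Signal is given as log2 relative to the 75th percentile of the array, so 0 is the level of that percentile and 1 unit is a 2-fold difference. The interaction of a gene is the effect of C/EBPalpha with IRF8 minus its effect without IRF8, in log2 units. It is the same number as the level in double cells minus the level obtained by adding the single effects to the empty-vector level. A positive interaction means that double cells stood above the sum of the single effects, and a negative one that they stood below it. Values are the estimate ± standard error (SE) from limma over all 8 arrays, with p-values adjusted over all genes by the method of Benjamini and Hochberg and a threshold of 0.05. The 2 arrays per group limit the precision of every value. In bulk samples such as these, fewer cells of a kind and less RNA per cell cannot be told apart.

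Between 49.86% and 56.24% of probes were well above background on the 8 arrays, and no spot was saturated. Before scaling, processed signal at the 75th percentile lay at 445 to 460 units with empty vectors, 367 to 369 with IRF8, 215 to 218 with C/EBPalpha and 147 to 154 with both, so raw brightness moved with the groups. All 8 arrays lay on 1 slide, with IRF8 following the slide row and C/EBPalpha the slide columns. An effect of row and an effect of column that add to each other cancel in the interaction, whereas in the single effects they cannot be told apart from the factors. Replicate arrays correlated at 0.9959 to 0.998 over genes. The transcripts that check the labels could not be read: the Irf8 probe gave 2.0 to 13 units and the Cebpa probe 3.0 to 4.0 units, and neither was well above background on any of the 8 arrays, while both were on all 8 progenitor arrays. These probes therefore check nothing about the transduction. Of the markers of the line, Il3ra, Csf2rb, Csf2rb2, Ptprc, Spi1, Mpo and Myb were well above background on all 8 arrays, and Kit, the stem cell factor receptor, was on 0.

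Of 13339 genes tested, 7417 (55.6%) had an interaction past the threshold. Double cells stood above the sum for 3174 genes (23.8%) and below it for 4243 (31.8%). At 2-fold or more these counts were 527 (3.95%) above and 835 (6.26%) below. Among the 11560 genes well above background on all 8 arrays, 280 lay at least 2-fold above and 634 at least 2-fold below. Computed within experiment 1 and within experiment 2, the interaction had the same sign for 7416 of the 7417 called genes and for 84.8% of all genes. The calls were made from these same arrays, so the agreement among called genes is no separate check. The median interaction over all genes was -0.014 and its median size 0.322.

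The split between the directions depended on how the arrays were scaled. The interaction of the unscaled log2 75th percentile was -0.224 and that of the log2 median 0.164, so these scalings move the genes in opposite directions. With each array scaled to its median, the median interaction of all genes shifted to -0.402, and genes above the sum made up 9.3% of the calls in place of 42.8%. With the 75th percentile taken over the probes detected on all 8 arrays, the median was 0.076 and the share above was 54.3%. Each of these scalings moves every gene by the same amount, which is smaller than the 2-fold threshold. The 1362 genes called at 2-fold or more therefore could not change sign under either scaling. With the deposited values 11 of these genes changed sign, and with normexp background correction 29 did.

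**Figure D1:**
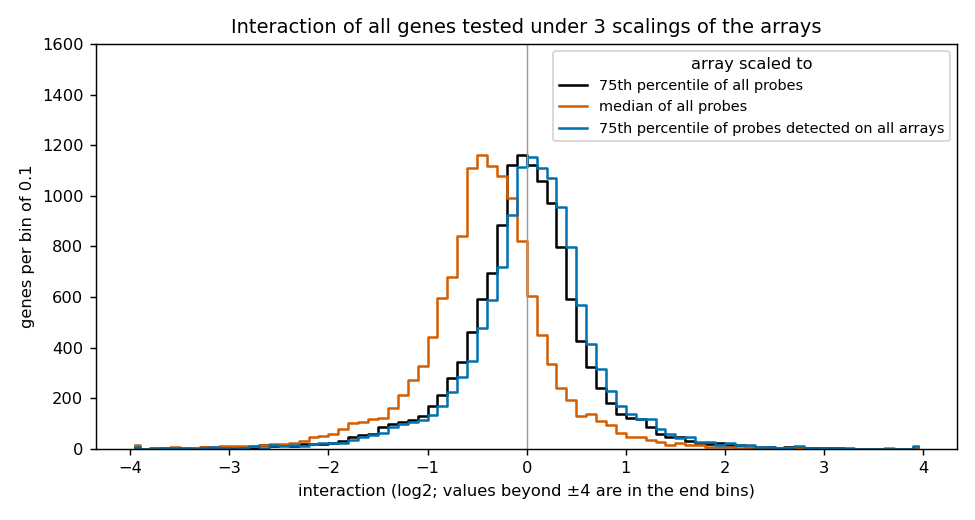
Distribution of the interaction over the 13339 genes tested, in log2 units on the x axis and as genes per bin of 0.1 on the y axis, with arrays scaled in 3 ways. The medians lie at -0.014, -0.402 and 0.076. Each change of scaling moves every gene by the same amount along the axis, so the curves keep their shape by construction.

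Sums depend on the scale as well. When single effects were added on the linear scaled signal instead of log2, 99.1% of the 3174 genes above the sum and 89.1% of the 4243 genes below it kept their sign.

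The levels show how the genes came to stand apart from the sum, as a description of genes picked by these same values. Of the 280 genes at least 2-fold above it and detected on all arrays, 235 were highest in double cells, 33 with empty vectors, 11 with IRF8 and 1 with C/EBPalpha. Of the 634 genes below it, 305 were highest with C/EBPalpha alone, 237 with empty vectors, 59 with IRF8 and 33 in double cells. Genes below the sum were thus mostly of 2 kinds, those that C/EBPalpha alone brought highest and those highest in cells with neither factor.

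The 3 genes furthest to each side of the sum among those detected on all arrays are Il6, Ccl17 and Itgax above, and Lyz2, Trem2 and Aldh3b1 below. Their promoters are shown because IRF8 and C/EBPalpha bind DNA and the transcripts of these genes departed most from the sum. Each is the 250 bases before the start of the first transcript listed for the gene, in GRCm38.p6, read 5′ to 3′ on the strand of the gene, with any match to a searched motif in capitals. The motifs, searched on both strands, were TTNNGCAA (C/EBP type), GAAA and GAAA with 2 bases between them (the repeat of interferon regulatory factors), and GGAA and GAAA with 2 bases between them (the composite of PU.1-type and interferon regulatory factors). A stretch of DNA can match both of the last kinds in part. RefSeq listed a promoter for 10692 of the 13339 genes tested.
Il6, chr5:30012864-30013113, plus strand: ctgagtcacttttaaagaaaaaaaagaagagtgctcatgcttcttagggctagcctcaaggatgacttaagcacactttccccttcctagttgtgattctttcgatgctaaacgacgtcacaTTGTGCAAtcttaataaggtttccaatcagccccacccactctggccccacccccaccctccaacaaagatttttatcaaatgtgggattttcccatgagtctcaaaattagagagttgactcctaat
Ccl17, chr8:94810203-94810452, plus strand: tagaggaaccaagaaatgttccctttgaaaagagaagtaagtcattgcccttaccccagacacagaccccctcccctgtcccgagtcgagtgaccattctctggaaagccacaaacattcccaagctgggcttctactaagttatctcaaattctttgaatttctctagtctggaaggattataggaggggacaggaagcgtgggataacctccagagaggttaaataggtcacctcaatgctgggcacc
Itgax, chr7:128129300-128129549, plus strand: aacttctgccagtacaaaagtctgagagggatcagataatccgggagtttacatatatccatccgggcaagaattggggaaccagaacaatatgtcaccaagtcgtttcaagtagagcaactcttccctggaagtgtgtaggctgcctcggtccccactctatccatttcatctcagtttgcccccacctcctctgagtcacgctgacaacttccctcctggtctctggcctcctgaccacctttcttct
Lyz2, chr10:117282273-117282522, minus strand: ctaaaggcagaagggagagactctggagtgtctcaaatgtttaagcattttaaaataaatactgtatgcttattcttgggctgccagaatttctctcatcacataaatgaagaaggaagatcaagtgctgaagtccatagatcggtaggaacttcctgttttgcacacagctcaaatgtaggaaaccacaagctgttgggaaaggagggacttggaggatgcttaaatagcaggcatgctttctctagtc
Trem2, chr17:48346151-48346400, plus strand: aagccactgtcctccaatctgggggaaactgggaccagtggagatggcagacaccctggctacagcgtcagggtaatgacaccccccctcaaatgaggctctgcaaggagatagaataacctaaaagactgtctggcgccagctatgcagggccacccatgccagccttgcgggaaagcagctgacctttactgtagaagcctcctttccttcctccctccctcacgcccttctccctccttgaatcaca
Aldh3b1, chr19:3929779-3930028, minus strand: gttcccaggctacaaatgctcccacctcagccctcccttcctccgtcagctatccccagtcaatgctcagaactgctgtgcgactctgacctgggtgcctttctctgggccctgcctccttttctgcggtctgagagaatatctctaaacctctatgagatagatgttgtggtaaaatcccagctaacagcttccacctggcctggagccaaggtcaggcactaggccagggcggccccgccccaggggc

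Of these 6 windows, that of Il6 held a C/EBP-type match, TTGTGCAA, from 128 to 121 bases before the start, and none of the 3 motifs was found in the other 5. Over all 27025 promoters of the table, windows of the same length held the C/EBP-type motif in 9.55%, the interferon regulatory repeat in 3.04% and the composite motif in 2.38%. In promoters of the 10692 genes tested, from which the sets below are drawn, the shares were 8.07%, 2.77% and 2.07%. Among genes at least 2-fold above the sum the shares were 7.58%, 1.9% and 1.42% of 211 promoters, and among genes at least 2-fold below it 10.9%, 3.05% and 2.48% of 525. A match is a stretch of letters and was not measured as a bound site.

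Among genes detected on all arrays, the cytokine Il6 stood furthest above the sum. It was at -0.34 and -0.37 with empty vectors, -3.46 and -3.19 with C/EBPalpha, -2.73 and -2.82 with IRF8, and -1.38 and -1.16 with both. Each factor alone lowered Il6 and the double arrays lay above both single groups, with no overlap between groups. The interaction was 4.47 ± 0.19 (adjusted p = 3.14e-09). C/EBPalpha lowered Il6 by itself (log2 change -2.97) and raised it in cells that also had IRF8 (1.502).

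Ccl17 encodes a chemokine that attracts T cells and is typical of dendritic cells. Its levels were -0.67 and -0.68 with empty vectors, -2.55 and -2.69 with C/EBPalpha, 5.72 and 5.72 with IRF8, and 7.10 and 7.11 with both. The order was thus C/EBPalpha, empty vectors, IRF8, double, without overlap. The interaction was 3.32 ± 0.06 (adjusted p = 2.26e-11), as adding C/EBPalpha lowered the level by itself (-1.94) and raised it on top of IRF8 (1.38).

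Itgax, the CD11c integrin chain of dendritic cells, followed a like course. It stood at -0.95 and -0.90 with empty vectors, -2.91 and -3.15 with C/EBPalpha, 1.60 and 1.65 with IRF8, and 2.22 and 2.16 with both. Double arrays were the highest and C/EBPalpha arrays the lowest. The interaction was 2.67 ± 0.11 (adjusted p = 3.62e-09). With normexp background correction the interactions of Il6, Ccl17 and Itgax were smaller, at 2.49, 2.03 and 1.17, with the same sign and still past the threshold.

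**Figure D2:**
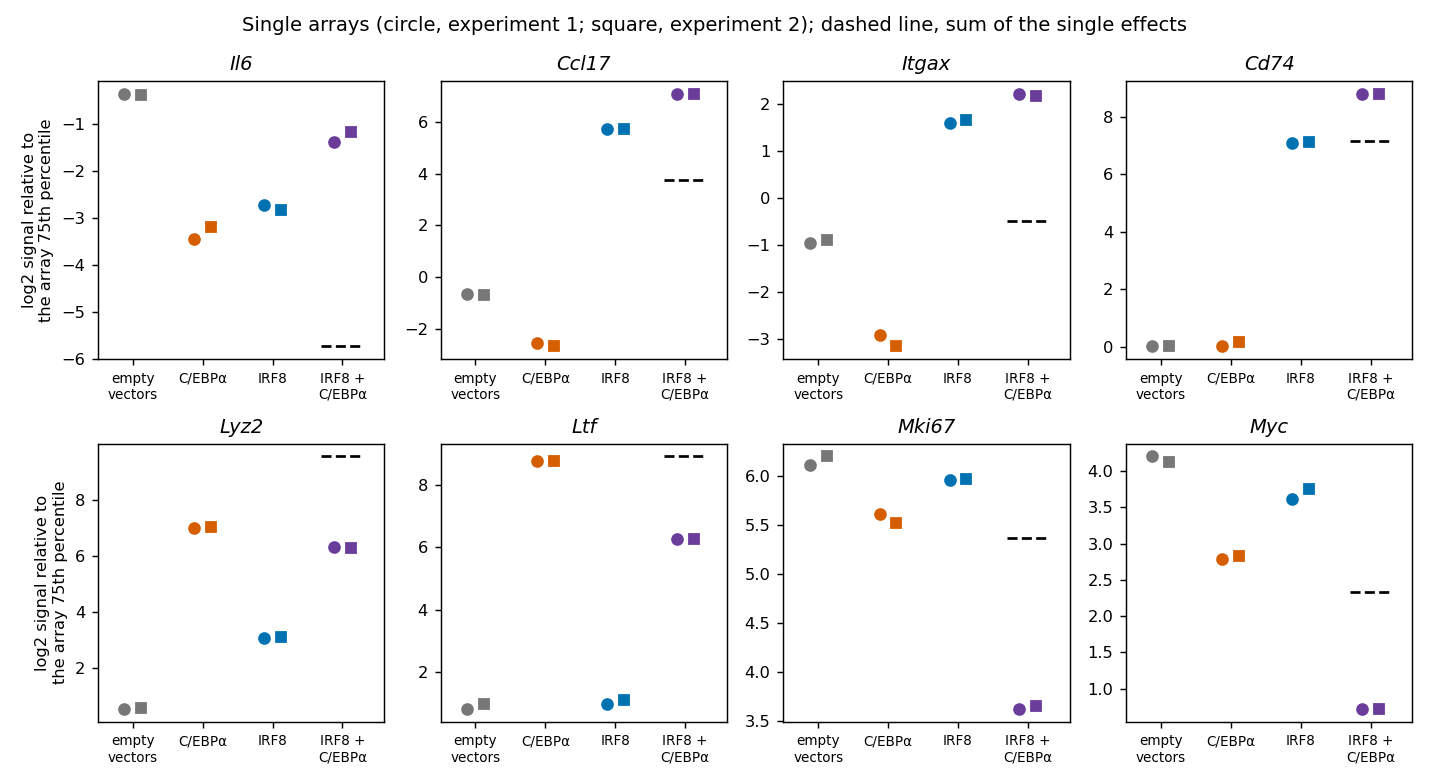
Log2 signal relative to the array 75th percentile (y axis) of 8 genes on the 8 arrays, by group (x axis), with circles for experiment 1 and squares for experiment 2. The dashed line is the level that the sum of the single effects gives for double cells: Il6, Ccl17, Itgax and Cd74 lie above it, and Lyz2, Ltf, Mki67 and Myc below it.

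The next genes above the sum were Lrrc14b (2.65), Clec4d (2.27), Atp9a (2.23), Evpl (2.16), Cx3cl1 (2.16), Klk1b8 (2.13), Nod2 (2.05), Gpr132 (1.96) and Hsph1 (1.95), all of them detected on every array. Clec4d, a lectin receptor for mycobacterial lipid, was at 3.48 and 3.67 with empty vectors, 3.08 and 2.98 with C/EBPalpha, 4.60 and 4.76 with IRF8, and 6.43 and 6.37 with both. Nod2, the sensor of bacterial muramyl dipeptide, lay at -2.47 on both empty-vector arrays, at -1.99 and -2.13 with C/EBPalpha, at -1.38 and -1.29 with IRF8, and at 1.08 and 1.15 with both. Gpr132, a receptor of macrophages, went from -1.07 and -0.97 through 0.03 and 0.02 with C/EBPalpha and 1.45 and 1.41 with IRF8 to 4.42 and 4.44 with both. In these 3 genes the double arrays were the highest, and for Nod2 and Gpr132 both single groups were also above the empty vectors. The 2 probes of Atp9a disagreed, with interactions of 0.29 and 2.23, and Klk1b8 belongs to a family of near-identical kallikreins that a probe may not separate. With normexp background correction Lrrc14b, Evpl and Klk1b8 were at 1.55, 1.12 and 1.41.

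MHC class II presentation was the list with the highest median interaction, 0.618 beside -0.014 over all genes. Of its 12 members 8 were above the sum, 2 were below and 2 did not pass. Among all genes 23.8% were above and 31.8% below. Cd74, the invariant chain that guides class II molecules, was at 0.02 and 0.03 with empty vectors, 0.01 and 0.16 with C/EBPalpha, 7.09 and 7.12 with IRF8, and 8.79 on both double arrays. The empty-vector and C/EBPalpha arrays overlapped at the bottom, and the double arrays were the highest. C/EBPalpha alone left Cd74 at a log2 change of 0.06, raised it by 1.68 on top of IRF8, and the interaction was 1.62 ± 0.06 (adjusted p = 1.29e-09).

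The class II beta chain H2-Eb1 was not well above background on any C/EBPalpha array, and IRF8 arrays were at least 861-fold and double arrays at least 2670-fold brighter than those. Its interaction was 2.18 ± 0.51 as measured and 0.94 with faint values raised to the faintest detected signal, and it ranged from 0.67 to 3.46 over the scalings and background corrections and lost its call in the limma fit without trend (adjusted p = 0.0527). H2-Aa (0.68), Ctss (0.75), H2-Ob (0.79), Ifi30 (0.66), H2-Oa (0.57) and Ciita, the transactivator of the class II genes (0.53), were also above the sum. H2-Aa was not well above background with empty vectors or C/EBPalpha, and ranged from 0.3 to 2.03 over the scalings and background corrections. The peptide exchangers H2-DMa (-0.67) and H2-DMb1 (-0.37) were below it. Because the members differ in size of effect, the median over members of the summed single effects, 5.98, was above the median double effect, 5.03, although most members were above their own sum. With arrays scaled to the median the members above were 5, and over the 6 scalings and background corrections tried the list's median ranged from 0.230 to 0.917. With only genes detected on all arrays 6 members were above, and 6 in the limma fit without trend.

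Of 13 dendritic cell genes tested, 8 were above the sum and 2 below, with a median of 0.515. The shares of all genes were 23.8% above and 31.8% below. With arrays scaled to the median 2 were above and 3 below, at a median of 0.127. Bst2 was at 1.19, Ccr7, the receptor that guides dendritic cells to lymph nodes, at 0.99, and Flt3, the receptor for a dendritic cell growth factor, at 1.32, but Ccr7 and Flt3 were faint, and Flt3 was at 0.29 at its lowest and lost its call with arrays scaled to the median (0.93), with quantile normalization (0.91), and without empty-vector experiment 2 (1.25), C/EBPalpha experiment 1 (1.0) or double experiment 2 (1.16). Naaa, a lysosomal amidase, was below at -2.23, since each factor alone raised it (2.61 for C/EBPalpha, 3.26 for IRF8) and both together reached 3.64. For the class I pathway 9 of 15 members were above and 2 below, led by the immunoproteasome subunit Psmb10 (1.03, and 0.64 at its lowest over the scalings) and the peptide transporter Tap2 (0.86). With arrays scaled to the median 2 were above and 7 below, and the median turned from 0.179 to -0.209. Under that scaling 785 of all 13339 genes were above and 7701 below, at a median of -0.402. The turn thus went with the shift of all genes.

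Stress and immediate early genes were also mostly above the sum, 10 of 14 with 3 below, beside 23.8% and 31.8% of all genes. Their median was 0.460. The chaperone Hsph1 lay at 5.67 and 5.66 with empty vectors, 4.37 and 4.38 with C/EBPalpha, 5.68 and 5.74 with IRF8, and 6.37 on both double arrays. C/EBPalpha arrays were the lowest and double arrays the highest, and the interaction was 1.95 ± 0.04 (adjusted p = 4.12e-11). Junb, an AP-1 subunit, was at -1.18 and -1.43 with empty vectors, -1.48 and -1.20 with C/EBPalpha, -1.10 and -1.15 with IRF8, and 0.48 and 0.53 with both. Its 3 other groups lay close together, those with empty vectors and C/EBPalpha overlapping, and the double group stood apart from them (1.67 ± 0.15, adjusted p = 2.64e-06). Ier5 (1.30) and the chaperone Dnajb1 (1.12, and 0.73 at its lowest over the scalings) were above too, and Dusp1, a phosphatase that ends MAP kinase signals, was below (-0.69). With arrays scaled to the median 5 of the 14 were above, beside 785 of all 13339 genes.

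Among genes detected on all arrays, the macrophage and neutrophil lysozyme Lyz2 stood furthest below the sum. It was at 0.53 and 0.55 with empty vectors, 6.98 and 7.02 with C/EBPalpha, 3.07 and 3.09 with IRF8, and 6.30 and 6.29 with both. C/EBPalpha arrays were the highest, and the double arrays lay between them and the IRF8 arrays. The sum of the single effects gave a level of 9.55 and the interaction was -3.25 ± 0.04 (adjusted p = 1.57e-12). Its neighbour Lyz1 gave -2.69, but the 2 genes are near-identical copies and their probes may read both.

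Trem2, a lipid-sensing receptor of macrophages, was at -2.34 and -2.19 with empty vectors, 1.58 and 1.46 with C/EBPalpha, 2.80 and 2.80 with IRF8, and 3.40 and 3.37 with both. Here the double arrays were the highest, and each factor alone also raised the gene (3.79 and 5.06). The interaction was -3.20 ± 0.08 (adjusted p = 1.33e-10), and on the linear scale, where the sum of 2 such rises is smaller, its sign was the opposite. Mpeg1, the pore-forming protein of macrophages (-2.58), and the interleukin 6 receptor Il6ra (-2.46) had the same order of groups, and their signs also turned on the linear scale.

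Others among the 12 furthest below were highest with C/EBPalpha alone: Aldh3b1 (-3.13), Pram1 (-2.83), Ceacam2 (-2.82), Dgat2 (-2.80), Trib1 (-2.67), Ltf (-2.66) and Csf2ra, the alpha chain of the GM-CSF receptor (-2.62). Pram1, an adaptor of granulocytic cells, was at 1.75 and 1.79 with empty vectors, 6.29 and 6.24 with C/EBPalpha, 2.99 and 2.98 with IRF8, and 4.66 and 4.64 with both. The order was C/EBPalpha, double, IRF8, empty vectors, without overlap. IRF8 raised Pram1 by itself (1.22) and lowered it in the presence of C/EBPalpha (-1.61). Csprs (-2.80) had 3 probes with interactions from -2.80 to 0.07, and Cd200r2 (-2.60) was faint with empty vectors. With normexp background correction they were at -1.79 and -1.55.

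**Figure D3:**
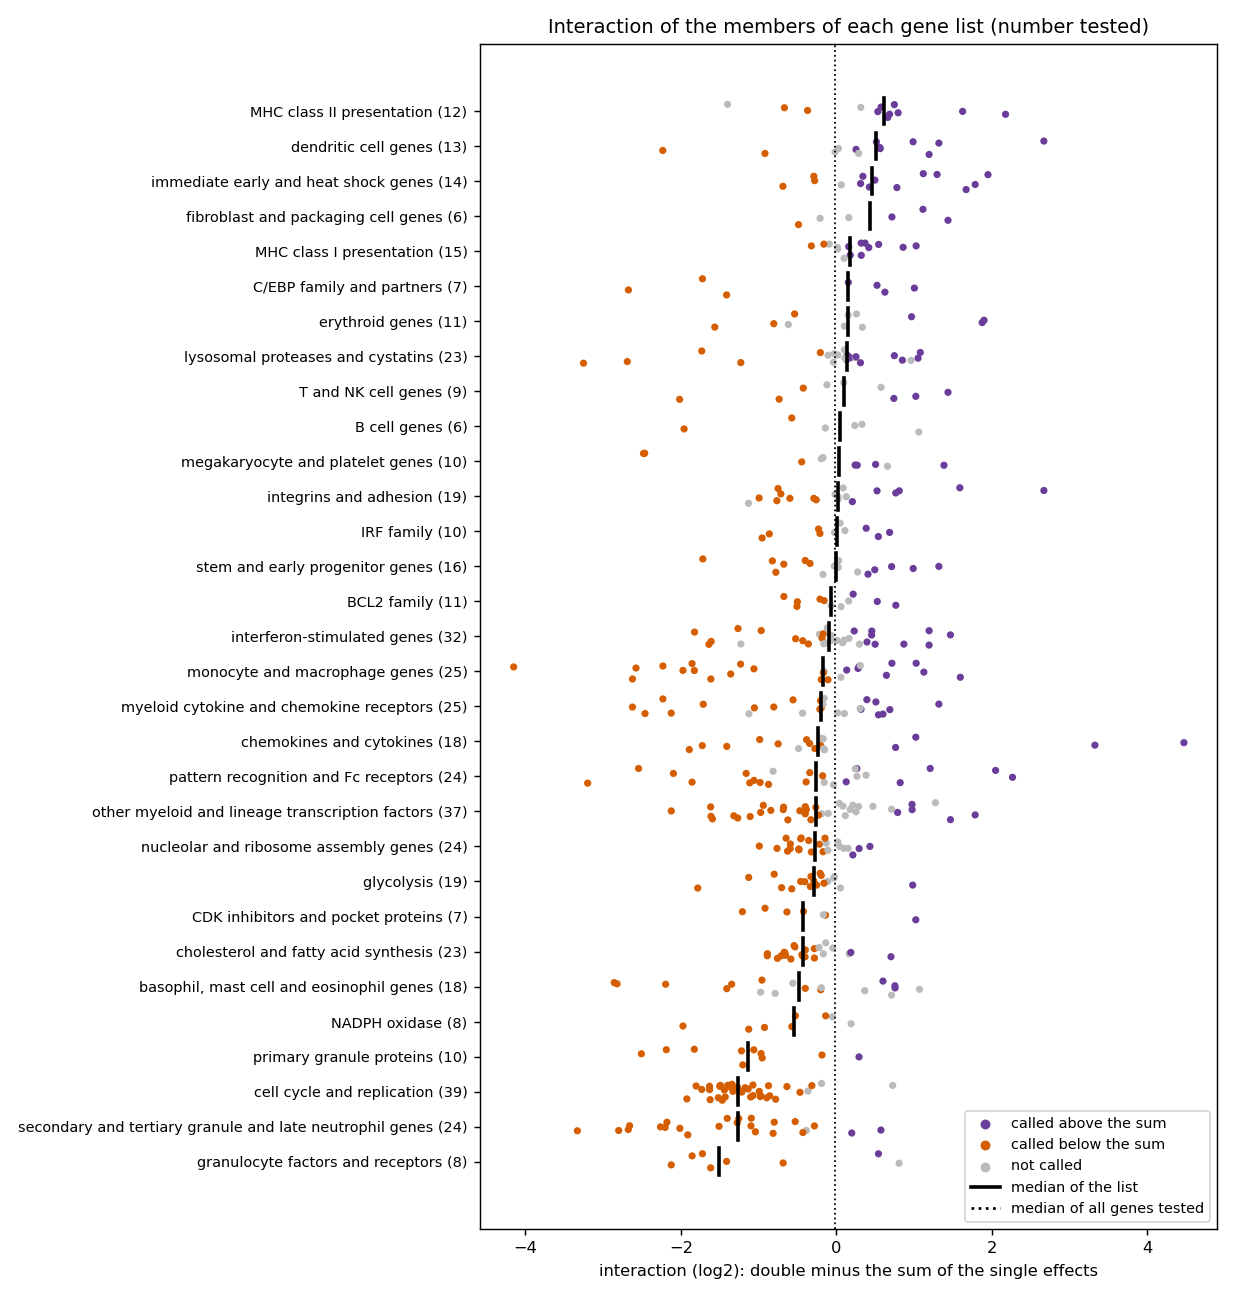
Interaction in log2 units (x axis) of every tested member of 31 gene lists (y axis, with the number tested), coloured by the call at an adjusted p of 0.05. The black bars are the list medians, from -1.513 for granulocyte factors and receptors to 0.618 for MHC class II presentation, and the dotted line is the median of all genes, -0.014.

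Most granule genes of neutrophils were below the sum. Of the 10 primary granule genes 9 were below the sum, beside 31.8% of all genes, with a median of -1.132. Neutrophil elastase, Elane, lay at 2.35 and 2.42 with empty vectors, 5.99 and 5.97 with C/EBPalpha, 2.18 and 2.27 with IRF8, and 3.65 and 3.62 with both. C/EBPalpha arrays were the highest, double arrays came next, and the IRF8 arrays lay below the empty vectors. The interaction of Elane was -2.19 ± 0.05 (adjusted p = 1.18e-10). Serpinb1a, an inhibitor of elastase, was at -1.83 and the serine protease Prss57 at -1.22. Mgst1 (-2.51) was not well above background without C/EBPalpha, and was at least 912-fold brighter with C/EBPalpha and at least 190-fold brighter with both than with empty vectors. Cathepsin G, Ctsg, was close to the sum (-0.18) and Mpo, myeloperoxidase, was above it (0.29), and both signs turned under another scaling or background correction (up to 0.12 for Ctsg and down to -0.10 for Mpo). C/EBPalpha raised Mpo by 2.84 alone and 3.13 with IRF8.

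Among later granule proteins and other genes of maturing neutrophils, 21 of 24 tested members were below the sum and 2 above. All genes had 31.8% below and 23.8% above. The median of the members was -1.264. The iron-binding granule protein lactoferrin, Ltf, was at 0.82 and 0.98 with empty vectors, 8.78 and 8.77 with C/EBPalpha, 0.98 and 1.09 with IRF8, and 6.25 and 6.26 with both. Empty-vector and IRF8 arrays met at the bottom, and the double arrays stayed well above them while lying below C/EBPalpha alone. C/EBPalpha raised Ltf by 7.87 alone and by 5.22 with IRF8, an interaction of -2.66 ± 0.07 (adjusted p = 1.66e-10). Mmp8 (-2.68), the collagenase of neutrophils, and Retnlg (-3.33, and -2.63 with faint values raised) were not well above background without C/EBPalpha, and double arrays exceeded empty vectors at least 49.8-fold and 671-fold. Ifitm6 (-2.26), Chil3 (-2.20), Anxa1 (-2.18), Cd177 (-2.01) and the antimicrobial peptide Camp (-1.91) were also below.

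Some late neutrophil genes lay near the sum or above it. The calgranulin subunits differed, with S100a8 below the sum (-0.53) and S100a9 above it (0.57), and C/EBPalpha raised S100a9 by 4.77 alone and 5.34 with IRF8. Ngp was near the sum (-0.28), and Wfdc21 was above it (0.20), but below it with arrays scaled to the median. Fcnb did not pass (-0.39, 95% interval -0.765 to -0.008, adjusted p = 0.0773).

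Granulocyte factors and receptors had the lowest median, -1.513, with 6 of 8 tested members below and 1 above, beside 31.8% and 23.8% of all genes. Gfi1, a repressor needed for neutrophils, was at 3.81 and 3.79 with empty vectors, 6.27 and 6.26 with C/EBPalpha, 2.47 and 2.56 with IRF8, and 3.42 and 3.32 with both. C/EBPalpha arrays were the highest and the double arrays lay below the empty vectors. The interaction was -1.62 ± 0.06 (adjusted p = 9.58e-10). Cebpe, the C/EBP factor of late granulocyte stages, was at 4.60 and 4.63, 7.20 and 7.25, 4.49 and 4.51, and 5.69 and 5.71 in the same order of groups, and its interaction was -1.41 ± 0.04. The chemokine receptor Cxcr2 (-2.12) and Cebpd (-1.72) were below, and Csf3r, the receptor for G-CSF, was above (0.54).

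In the C/EBP list, Cebpb (0.52), Cebpg (0.62) and Ddit3, a stress-induced member (1.00, and 0.62 at its lowest over the scalings), lay above while Cebpd and Cebpe lay below. Trib1, a pseudokinase known to promote the degradation of C/EBPalpha protein, was at -2.30 and -2.54 with empty vectors, 2.90 and 2.83 with C/EBPalpha, -2.06 and -2.14 with IRF8, and 0.51 on both double arrays. It rose with C/EBPalpha by 5.29 alone and 2.61 with IRF8. Across all genes 31.8% were below the sum and 23.8% above. Of the NADPH oxidase, the enzyme of the respiratory burst, 6 of 8 members were below and 0 above, at a median of -0.549. Its catalytic chain Cybb, faint in some groups, was at -1.97 (-1.02 at its smallest over the scalings and corrections) and the regulator Ncf4 at -1.13, and Cyba (-0.05) and Rap1a (0.19) did not pass.

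Of the 31 lists, cell cycle and replication had the largest share below the sum: 36 of 39 genes, 26 of them at least 2-fold. None were above, and the median was -1.263. Among all genes 31.8% were below and 23.8% above. Over the list C/EBPalpha alone gave a median change of -0.90, IRF8 alone -0.20, the median of the sums -1.10 and the double -2.37. Mki67, the proliferation marker Ki-67, was at 6.11 and 6.20 with empty vectors, 5.61 and 5.51 with C/EBPalpha, 5.96 on both IRF8 arrays, and 3.62 and 3.65 with both. The 3 other groups lay within 1 unit of each other, and the double arrays stood far below them. The interaction was -1.73 ± 0.05 (adjusted p = 4e-10).

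Mitosis and DNA synthesis genes were both among those below the sum. For mitosis these were the kinases Aurkb (-1.92, faint in double cells, and no longer past the threshold with normexp, at -0.27), Plk1 (-1.63) and Cdk1 (-1.44), the phosphatase Cdc25c (-1.80, and -0.76 with normexp) and the cyclins Ccna2 (-1.63) and Ccnb2 (-1.62). For DNA synthesis they were the ribonucleotide reductase subunit Rrm2 (-1.499), Top2a (-1.37) and the helicase subunits Mcm2 to Mcm7, which ranged from -1.47 for Mcm5 to -1.07 for Mcm4. Smaller interactions were those of Cdk4 (-0.31) and Ccnd2 (-0.47). Tyms did not pass (-0.19, 95% interval -0.441 to 0.062), and neither did Ccnd1 and Ccne2, both faint. Among inhibitors of the cell cycle, Cdkn1a, which encodes p21, was above the sum (1.02), but its 2 probes gave 0.17 and 1.02, and scaling moved the value down to 0.63. Cdkn2d (-1.21), Cdkn2c (-0.92), Rbl1 (-0.64, with probes from -1.67 to -0.63) and Rb1 (-0.42) were below.

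**Figure D4:**
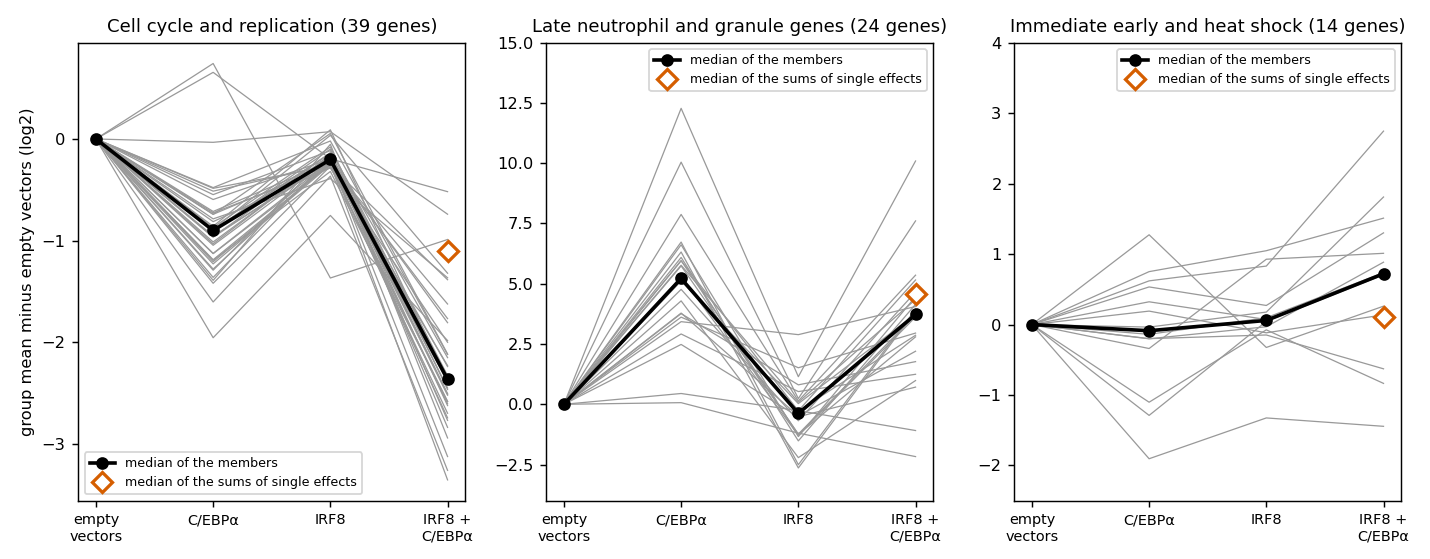
Group means relative to empty vectors in log2 units (y axis) for each member (grey) and their median (black) across the 4 groups (x axis) in 3 gene lists, with the median of the sums of single effects as a diamond. Cell cycle genes reached -2.37 where the sums gave -1.10, late neutrophil genes 3.72 where they gave 4.57, and stress and immediate early genes 0.72 where they gave 0.11.

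Transcription factors of progenitors were among those below. Myc, which drives growth and ribosome production, was at 4.20 and 4.12 with empty vectors, 2.79 and 2.83 with C/EBPalpha, 3.62 and 3.75 with IRF8, and 0.72 on both double arrays. Each factor alone lowered it and the double arrays were the lowest, with an interaction of -1.61 ± 0.07 (adjusted p = 2.77e-09). Mycn stood at 4.31 on both empty-vector arrays, 1.10 and 1.14 with C/EBPalpha, 1.72 and 1.70 with IRF8, and -3.39 and -3.01 with both. Its interaction of -1.72 was not kept with normexp background correction (0.20) or on the linear scale.

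Ikzf1 (-2.12, with 2 probes at -2.12 and -1.24), Erg (-1.59, and -0.97 at its smallest over the scalings and corrections), Fli1 (-1.32), Myb (-1.27), Runx1 (-0.97) and Spi1, which encodes PU.1 (-0.68), were likewise below. In all 20 of 37 further myeloid and lineage factors were below and 5 above, beside 31.8% and 23.8% of all genes. Myb was at 5.33 and 5.29 with empty vectors, 5.86 on both C/EBPalpha arrays, 4.94 and 4.93 with IRF8, and 4.17 and 4.26 with both, so C/EBPalpha raised it alone (0.55) and lowered it with IRF8 (-0.72). Relb (1.47), Zeb2 (0.97) and Klf4, a factor of monocytes (0.79), were above the sum. For Klf4 the 3 other groups lay between -1.37 and -1.06 and the double arrays at -0.14 and -0.31.

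Monocyte and macrophage genes went both ways, 14 of 25 below and 8 above, at a median of -0.168, beside 31.8% and 23.8% of all genes. With arrays scaled to the median 16 were below and 3 above, at a median of -0.556. That scaling put 7701 of all 13339 genes below and 785 above, at a median of -0.402. Below were Csf2ra, Mpeg1, the chemokine receptor Ccr2 (-2.23), Aif1 (-1.61) and Cd14 (-1.23), the receptor for lipopolysaccharide. Ccr2 was at -1.29 with faint values raised and at -0.30 with normexp background correction, and its sign turned on the linear scale, while Cd14 reached -0.80 at its smallest over the scalings and corrections. The receptor for macrophage colony-stimulating factor, Csf1r, was close to additive: it rose by 1.13 with C/EBPalpha, 3.61 with IRF8 and 4.54 with both, an interaction of -0.19 ± 0.06. Lgals3 (1.59), Treml4 (1.13) and Nr4a1 (1.03) were above, the last pair down to 0.61 and 0.50 under another scaling or correction. Among pattern recognition and Fc receptors 12 of 24 were below and 6 above, the latter near the 23.8% of all genes above the sum, and the related sensors Nod1 (-2.10) and Nod2 (2.05) stood on opposite sides. Nod1 was highest with C/EBPalpha alone, at 2.80 and 2.81 beside 1.25 and 1.41 with both.

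The IRF family had 3 of 10 members above and 4 below, with a median of 0.013. Irf1 was at 0.68 and Irf7 at -0.86. Interferon-stimulated genes had 9 of 32 above and 10 below, at a median of -0.092, with Ifi47 (-1.64) and Dhx58 (-1.61) below and Usp18 (1.19, and 0.59 at its lowest over the scalings and corrections) above. These shares are near the 23.8% and 31.8% of all genes.

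Some genes reached background in a group, and their interactions are less sure. The 6 furthest above were Ifnk (5.63), Prdm12 (5.32), Nqo1 (4.90), Foxl1 (4.78), Usp50 (4.57) and Aoc1 (4.0). For all 6, neither single group was well above background on any array, and for all but Foxl1 the double group was not either. Their sums lay from -10.02 for Ifnk to -8.55 for Foxl1, while their lowest group mean was -6.99, for Foxl1 with IRF8. Double cells could not be read as low as these sums, so the positive sign was set by background. The empty-vector arrays disagreed: Prdm12 was at -3.63 and 0.15, and Nqo1 at 0.43 and -3.38. The 6 furthest below were Pdpn (-4.50), Slc28a2 (-4.15), Mrc1 (-4.15), Lbp (-4.14), Olr1 (-3.81) and Sncaip (-3.77). Here replicates lay closer in most groups, but the double arrays of Pdpn were at -4.74 and -5.96 and those of Olr1 at -6.08 and -4.96. C/EBPalpha arrays exceeded double arrays at least 5.62-fold for Lbp, which binds lipopolysaccharide, at least 4.1-fold for the nucleoside transporter Slc28a2 and at least 3.76-fold for Olr1, the receptor for oxidized lipoprotein. With faint values raised to the faintest detected signal, Lbp was at -2.73, Slc28a2 at -2.28 and Olr1 at -2.15, and Ifnk at 2.13. Over the scalings and background corrections the smallest values of the 6 above lay between 0.98 for Foxl1 and 1.88 for Nqo1, and those of the 6 below lay between -1.40 for Pdpn and -0.51 for Mrc1. Nqo1, Usp50 and Aoc1 lost their calls in the limma fit without trend, Usp50 and Aoc1 also with the deposited values, and Aoc1 also without IRF8 experiment 2 (3.39).

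Markers of other cells were followed beside these results. On all 8 arrays 5 of 13 fibroblast and packaging cell genes, 10 of 14 erythroid, 7 of 18 T and NK cell, 3 of 13 B cell, 12 of 25 basophil, mast cell and eosinophil and 5 of 11 megakaryocyte and platelet genes with a probe were well above background. On no array were the fibroblast markers Col3a1, Dcn, Fn1, Pdgfra and Postn, the T and NK cell markers Cd3g, Cd247 and Ncr1, the B cell genes Rag1 and Rag2, or the mast cell genes Fcer1a, Ms4a2 and Cma1. Other markers were detected in at least 1 group and called. Of T and NK cell genes 3 were above the sum and 3 below, among them Thy1 (1.44), Lck (1.02), Cd3e (0.74) and Cd3d (-2.02). The B cell genes Cd79b (-1.96) and Vpreb1 (-0.57) were below. Of fibroblast genes Col1a2 (0.71) was above and Acta2 (-0.49) below. Lck and Col1a2 lost their calls with arrays scaled to the median. Sparc, a matrix protein, was faint at -3.49 and -3.37 with empty vectors and higher with both, at -1.36 and -1.41 (interaction 1.11, and 0.58 at its lowest over the scalings and corrections). Of 11 erythroid genes tested 3 were above the sum and 3 below, at a median of 0.153 that turned to -0.235 with arrays scaled to the median. Both counts are near the shares of all genes, 23.8% above and 31.8% below. Scaling to the median moved the median of all genes to -0.402. The alpha globins Hba-a1 (1.90) and Hba-a2 (1.88), near-identical copies, fell with each factor alone and were about as low with both, while Tfrc, the transferrin receptor (-1.56), Rhd (-0.80) and the beta globin Hbb-bt (-0.54) were below the sum and Ermap (0.97) above. Whether other cells had a part in the results was not tested.

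The genes at least 2-fold from the sum were then looked up in the progenitor arrays, which the interaction did not use. Of 11964 genes tested there, 2730 were higher (22.8%) and 3425 lower (28.6%) in Irf8KO than in WT MDPs, and 2751 higher (23%) and 3720 lower (31.1%) in cMoPs. Of the 280 genes above the sum 215 were tested: 60 rose and 39 fell in MDPs (27.9% and 18.1%), and 57 rose and 50 fell in cMoPs (26.5% and 23.3%). Of the 634 genes below the sum 576 were tested: 170 rose and 212 fell in MDPs (29.5% and 36.8%), and 222 rose and 250 fell in cMoPs (38.5% and 43.4%). With progenitor arrays scaled to their medians, 25.2% of the genes below the sum rose and 54.7% fell in cMoPs, beside 9.14% and 58.8% of all genes. The share that rose was thus above that of all genes under both scalings, and the share that fell was above it under one and below it under the other.

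The genes below the sum separated by where they were highest in the cell line, a split made after their values were seen. Of the 264 tested that were highest with C/EBPalpha alone, 186 rose (70.5%) and 31 fell (11.7%) in Irf8KO cMoPs, and 127 rose (48.1%) and 55 fell (20.8%) in Irf8KO MDPs. Of the 235 highest with empty vectors, 18 rose (7.66%) and 180 fell (76.6%) in cMoPs, and 24 rose (10.2%) and 127 fell (54.0%) in MDPs. With progenitor arrays scaled to their medians, 47.3% of the first group rose in cMoPs beside 9.14% of all genes, and 90.2% of the second fell beside 58.8% of all genes. Genes above the sum and highest in double cells showed 28.3% up and 19.6% down of 184 in cMoPs, and 9.78% and 31% with median scaling. Genes highest in the same groups but nearer the sum were not looked up. The shares therefore cannot be assigned to the interaction rather than to where the genes were highest.

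**Figure D5:**
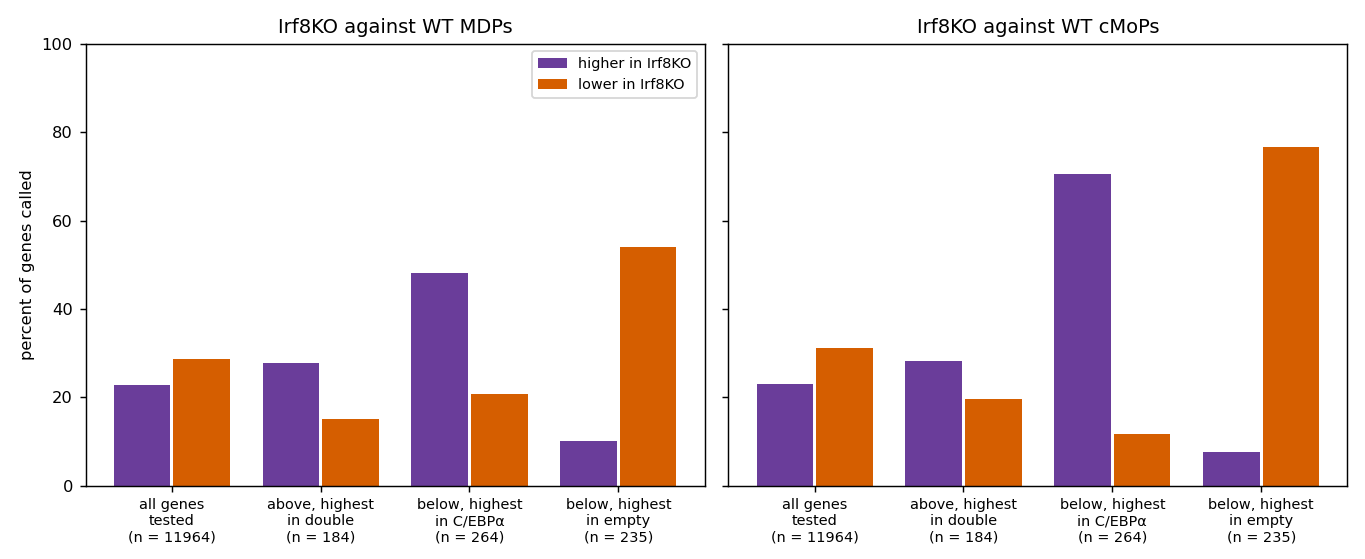
Percent of genes called higher or lower in Irf8KO than in WT MDPs (left) and cMoPs (right), for all genes tested and for genes at least 2-fold from the sum in 32Dcl.3 cells and detected on all arrays, split by the group with the highest level; n is the number tested. In cMoPs 70.5% of the genes below the sum and highest with C/EBPalpha rose, and 76.6% of those highest with empty vectors fell. Of all genes 23% rose and 31.1% fell, and of all genes at least 2-fold below the sum 38.5% and 43.4%.

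In Irf8KO cMoPs the granulocyte factors Gfi1 (2.18) and Cebpe (1.79), the granule genes Ltf (3.58), Mmp8 (2.87) and Serpinb1a (1.21), and Pram1 (0.98) and Dgat2 (2.89) rose, each as a log2 change. In MDPs Cebpe (-0.60) and Ltf (-1.63) fell while Gfi1 (0.97) rose. The cell cycle genes Mki67 (-0.43), Plk1 (-0.69) and Cdk1 (-0.40) fell in Irf8KO cMoPs, and Mki67 (0.03) and Plk1 (0.03) did not pass in MDPs. Trem2, below the sum and highest in double cells, fell in Irf8KO cMoPs (-2.39). Itgax, far above the sum and raised by IRF8 in the line, rose in these cells (2.68). Myc was below the sum and highest with empty vectors but, unlike most such genes, rose in Irf8KO cMoPs (0.38).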

How the data were processed

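The deposited scanner output is spot intensity with background subtracted inside each array and no scaling between arrays, produced by Feature Extraction 10.7.3.1 from Agilent, per the file headers. It also holds, per the file headers, median spot and background intensity and other columns of 0/1 flags. The authors' deposited series values are linear intensity scaled further, with identical quantiles across the 32Dcl.3 arrays; how they were made is not stated in the labels or headers.

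Of 62976 spots, 59305 were not controls. They gave 55681 probes, of which 26762 matched 1 gene symbol by RefSeq accession (GRCm38.p6), 28919 matched none and 0 matched several, leaving 20284 symbols. Outlier spots were left out, spots of a probe were averaged and log2 values were set relative to each array's 75th percentile. Probes entered the fit when at least 1 group had them well above background on both arrays (in over 0.5 of their spots), and the brightest probe stood for a gene. The 4 group means were fitted with limma 3.58.1 (R 4.3.3, data.table, version 1.17.8) by lmFit and eBayes with trend, with 4 residual and 7.13 prior degrees of freedom, and p-values were adjusted by Benjamini-Hochberg. They measure the spread between arrays of 2 experiments. Progenitor arrays were fitted apart in the same way. Where a gene was not well above background in a group, a minimum fold was computed with the faint arrays raised to their faintest detected signal where that was higher.

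The members and the 31 lists were chosen with earlier results of these data known. Named genes were the 12 largest interactions of each sign among genes detected on all arrays with the same sign in both experiments (Gm, Rik and LOC symbols left out), the 6 largest of each sign among fainter genes, and up to 4 called members with the largest interactions per list, with Irf8 and Cebpa always; other genes were named after their values were seen. Lists are described by counts and medians. The fit was tested on simulated data. Same-numbered arrays did not deviate together, with residual correlations of -0.062 to 0.053. Whether cells were selected or sorted after transduction is not stated in the labels. Alternatives covered scaling, background correction, the filter on faint probes, probe choice, the replicate block and leaving out each array. Plots used matplotlib 3.10.9 (Python 3.11.15).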

Additional observations from a re-analysis of the deposited data

Results flagged for a closer look

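In 19 genes an effect of one factor turned to the opposite side when the other factor was present, with each effect at least 2-fold and past the threshold, and 4 of these were detected on all 8 arrays. The difference between the effects is the interaction itself, tested by limma. Il6 (interaction 4.47) was lowered by C/EBPalpha alone (-2.97) and raised by it with IRF8 (1.502), and it was also lowered by IRF8 alone (-2.42) and raised by it with C/EBPalpha (2.05). Ccl17 (3.32) was lowered by C/EBPalpha alone (-1.94) and raised with IRF8 (1.38). Aldh3b1 (-3.13) was raised by IRF8 alone (2.08) and lowered by it with C/EBPalpha (-1.05). Pram1 (-2.83) was raised by IRF8 alone (1.22) and lowered by it with C/EBPalpha (-1.61).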

How the results depend on the processing

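With each array scaled to its median, 785 genes were above and 7701 below the sum, 221 and 1803 at 2-fold; in the lists, 0 primary granule, 1 late neutrophil, 5 MHC class II and 5 immediate early and heat shock genes were above, and in Irf8KO cMoPs 9.77% of genes above the sum rose and 35.3% fell and 25.2% of those below rose. Quantile normalization left 1 late neutrophil gene above and 1 MHC class II gene below. Normexp, on median signals because mean signals are not in the files used, gave 104 genes above and 519 below at 2-fold and 1 late neutrophil gene above, and turned Gp1ba (0.27) and Mycn (0.20). With the deposited values 2 primary granule genes were above. With genes detected on all arrays 11569 were tested and 286 were 2-fold above, beside 13339 and 527 in the main fit. Of those 527 genes, 280 were detected on all arrays. With faint values raised 1 cell cycle gene was above. On the linear signal the signs of Bmf (0.42), Ccl6 (117), Ccr2 (0.373), Cd200r2 (0.492), Dkc1 (0.726), Gbp2 (0.129), Gp1ba (0.0561), Il6ra (9.07), Mpeg1 (28.2), Mycn (14.5), Nop56 (3.02), Nop58 (1.16) and Trem2 (0.837) turned. Apart from scale and the set of genes tested, the cause was not tested.

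Without 1 array, genes above numbered 2730 to 3033 and below 3893 to 4192, at 2-fold 446 to 538 and 806 to 861, and late neutrophil genes above 1 to 2 (1 without C/EBPalpha experiment 1, IRF8 experiment 2 or double experiment 2). The replicate number as a block gave 3152 above and 4223 below and changed no other listed count by over 1.5 times; the labels do not tie same-numbered arrays to a shared source. Of single genes under the settings tried, 2512 values kept their call and direction, 40 lost the call and 2 turned. Faint signal limits most the genes near background in a group, and 2 arrays per group limit all values.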

Other observations

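Most genes of 2 metabolic lists were below the sum, where 31.8% of all genes were below and 23.8% above. Of 23 genes of cholesterol and fatty acid synthesis 16 were below the sum and 2 above, at a median of -0.433, with 0 at 2-fold. Fdps, an enzyme of the mevalonate pathway, was at 6.17 and 6.15 with empty vectors, 6.84 and 6.86 with C/EBPalpha, 5.87 on both IRF8 arrays and 5.65 and 5.68 with both (interaction -0.89). Of 19 glycolysis genes 14 were below and 1 above, at a median of -0.290. The lactate carrier Slc16a3 (-1.78) was higher with C/EBPalpha alone and near empty vectors in the other groups, and the glucose carrier Slc2a1 was above the sum (0.98). Nucleolar and ribosome assembly genes had 15 of 24 below and 3 above (median -0.269), and C/EBPalpha alone already gave a median change of -1.75 and both factors -2.20.

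Of 10 megakaryocyte and platelet genes tested 4 were above the sum and 3 below, at a median of 0.035 that turned to -0.353 with arrays scaled to the median. Over all genes 23.8% were above and 31.8% below, and scaling to the median moved the median of all genes to -0.402. Gp9, a platelet glycoprotein, was at 0.61 and 0.68 with empty vectors, 0.75 and 0.66 with C/EBPalpha, -1.16 and -1.06 with IRF8, and -3.50 and -3.56 with both (interaction -2.48, ranging from -3.05 to -0.59 over the scalings and background corrections). Gp1ba (-2.46) was also below, with its sign turned by normexp (0.27) and its call lost with faint values raised (-0.33), and Pf4 was at -0.45. Above were the platelet chemokine Ppbp (1.38, and 0.37 at its lowest), F2rl2 (0.50, not called at 0.12 with median scaling), Vwf (0.27) and Itga2b (0.24), of which Vwf and Itga2b changed sign under another scaling (-0.12 and -0.15). With arrays scaled to the median 1 was above and 4 were below. Of 18 basophil, mast cell and eosinophil genes 8 were below and 3 above, beside 31.8% and 23.8% of all genes. Their median was -0.480, and -0.3 with faint values raised. Siglecf, a lectin of eosinophils, was at 1.48 and 1.56, 2.85 and 2.87, 1.54 and 1.59, and 0.79 and 0.62 in the order empty vectors, C/EBPalpha, IRF8 and both (-2.20), and Ear2, one of a family of near-identical ribonucleases, was not well above background without C/EBPalpha (-2.82, and -1.53 at its smallest). The members above were Tpsb2 (0.75), Cd200r3 (0.75) and Il5ra (0.60), and with arrays scaled to the median 1 was above and 11 were below. That scaling put 785 of all 13339 genes above and 7701 below. Icam1, an adhesion molecule, was at -1.62 and -1.69, -1.14 and -1.06, 0.04 and -0.01, and 2.15 and 2.16, an interaction of 1.59.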
